A study of Mus musculus with 2 samples.

Results

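The genes described here are 9 of the 20373 genes listed in both deposited tables, found by their symbols. They are the nuclear factor I genes Nfia, Nfib and Nfix, the cytokine receptor genes Lifr, Il6st and Cntfr, the Janus kinase genes Jak1 and Jak2, and Stat3, and each stands on 1 row of each table. RNA was sequenced from 2 populations of mouse cortical cells taken at embryonic day 15.5 and sorted by fluorescence, neural progenitor cells (NPCs) and neurons, with 1 library of each. The embryos of both groups came from crosses of heterozygous Nestin-GFP with homozygous DCX-mRFP mice and carried both reporters, a green one named for the progenitor gene Nestin and a red one named for the neuronal gene doublecortin. The labels give no treatment. Green cells were collected as NPCs and cells of both colours as neurons, so each group is what a reporter gate holds. The data column of the NPC table is headed D.ctx and that of the neuron table R.ctx. These letters are not explained in the sources used here and could stand for gates other than the labelled ones, and Dcx, the gene of the red reporter, was at 2522 CPM (scaled read counts) in the library labelled NPC. NPC and neuron therefore mean the libraries so labelled, in every ratio. The series sets these transcriptomes beside pausing of RNA polymerase II and bivalent histone marks, which were not analysed here. Reads on listed genes came to 26346226 for NPCs and 23312054 for neurons.

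Nuclear factor I proteins bind DNA as dimers, and in the embryonic forebrain they act both in the maturation of neurons and in the switch of radial glia from making neurons to making astrocytes. Leukaemia inhibitory factor (LIF) and ciliary neurotrophic factor (CNTF) bind receptors that contain gp130, the product of Il6st, together with the LIF receptor. CNTF also needs its own membrane-anchored receptor, the product of Cntfr. The receptors activate Janus kinases, which phosphorylate STAT3, and STAT3 dimers then turn on astrocyte genes and the feedback inhibitor gene Socs3.

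Stat3 was the 1 gene of the 9 past 2-fold, and it was lower in the neuron library. Il6st and Cntfr were lower there by a smaller factor, while Lifr, Jak1, Jak2, Nfib and Nfix were higher, and Nfia was nearly level. Levels are in CPM, read counts on a common scale for both libraries and per 1000000. For calls, 1 CPM was added to both values, and 2-fold was the threshold. Of the 9 genes, 1 passed 2-fold on the NPC side and 0 on the neuron side. Among all 12693 genes with at least 1 CPM in a library, 6.73% passed it on the NPC side and 3.85% on the neuron side, 10.6% in all. The share of 1 in 9 is near that background, and the count is no result about these genes as a set. The median of their log2 ratios (neuron over NPC) was 0.18, against -0.0049 for all genes compared, and 5 of the 9 log2 ratios were above 0. With 1 library per group there is no replicate check and no p-value. The 95% intervals beside ratios are exact Clopper-Pearson intervals on reads and cover counting error only.

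The 250 bases before RefSeq transcription starts are shown for 4 genes, since STAT3 acts by binding DNA at its target genes and Stat3 is the member that differed most. The windows are from build GRCm38.p6, and capitals mark matches to TTCNNNGAA, the palindromic core that STAT dimers bind. Stat3 is shown because it passed 2-fold, Nfix as the member with a match, Socs3 as the feedback gene and Aldoc as the listed astrocyte gene with more than 1 match. Socs3 and Aldoc were picked after their values and matches were seen.
Stat3, chr11:100939541-100939790, strand -: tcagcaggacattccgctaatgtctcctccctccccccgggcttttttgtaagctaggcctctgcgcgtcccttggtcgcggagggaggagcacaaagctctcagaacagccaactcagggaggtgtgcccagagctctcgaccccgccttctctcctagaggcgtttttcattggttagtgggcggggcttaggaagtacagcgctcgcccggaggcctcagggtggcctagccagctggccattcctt
Nfix, chr8:84775829-84776078, strand -: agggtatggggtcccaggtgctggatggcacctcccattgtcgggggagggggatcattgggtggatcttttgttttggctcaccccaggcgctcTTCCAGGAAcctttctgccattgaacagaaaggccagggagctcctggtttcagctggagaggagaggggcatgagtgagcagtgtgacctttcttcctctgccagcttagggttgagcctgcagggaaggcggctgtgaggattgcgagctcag
Socs3, chr11:117969367-117969616, strand -: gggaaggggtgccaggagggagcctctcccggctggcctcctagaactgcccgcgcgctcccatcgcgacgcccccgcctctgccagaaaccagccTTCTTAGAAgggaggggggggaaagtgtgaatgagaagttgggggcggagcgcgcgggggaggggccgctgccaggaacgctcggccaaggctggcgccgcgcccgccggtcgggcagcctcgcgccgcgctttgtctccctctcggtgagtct
Aldoc, chr11:78323948-78324197, strand +: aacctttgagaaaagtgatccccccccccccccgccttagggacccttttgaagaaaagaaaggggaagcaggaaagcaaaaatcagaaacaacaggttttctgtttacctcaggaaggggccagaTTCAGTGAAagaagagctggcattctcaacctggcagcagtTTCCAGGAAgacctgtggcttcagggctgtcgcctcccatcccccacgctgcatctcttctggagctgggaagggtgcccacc
Positions are counted back from the start, with -1 the last base before it. The Nfix window, 1 of several starts of this gene, holds the match from -155 to -147, and Socs3 holds one from -154 to -146. Aldoc holds matches from -124 to -116 and from -83 to -75. The Stat3 window holds no match. RefSeq windows were found for 8 of the 9 members, 17 windows in all (Nfib has none in the table), and 1 of them matched, or 5.88%. Among the listed pathway and astrocyte genes, from which Socs3 and Aldoc were picked, 5 of 80 windows matched, or 6.25%. Of all 32851 windows of this length 7.02% matched on either strand. The stricter form TTCCNGGAA, a subset of the first motif, was in the same Nfix window and in the second Aldoc match. It was also in the window of the listed receptor gene Il31ra, which is not shown. It was thus in 1 of the 17 member windows (5.88%), in 2 of the 80 listed windows (2.5%) and in 0.913% of all windows. Counts of 1 and 2 windows are too small to compare with that share. The full palindrome that nuclear factor I dimers bind was found in 0 of the 17 windows and in 0.0365% of all. A match of letters is not a binding site, and nothing about binding is read from it.

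**Figure D1:**
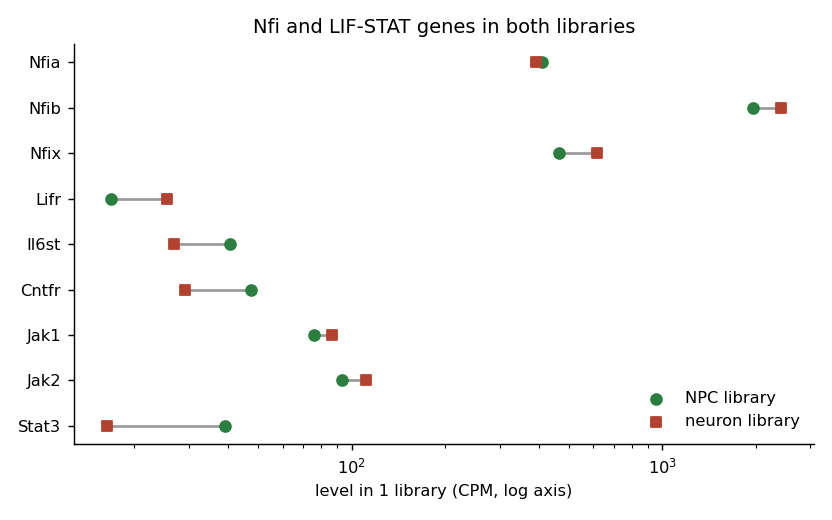
Level of each of the 9 genes in the NPC library (circles) and the neuron library (squares), in CPM on a log axis, with 1 library per group and no error bars. Nfib lies at 1964 and 2410 CPM, and Stat3 has the widest gap, 39.1 against 16.4 CPM.

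Among the transcription factors, Nfib was at 1964 CPM in NPCs against 2410 in neurons. It was higher in the neuron library by a ratio of 1.23 (95% counting interval 1.21 to 1.24). Nfix was at 465 CPM in NPCs against 616 in neurons, a ratio of 1.32 (1.29 to 1.36), and was also higher in neurons. Nfia was at 410 CPM in NPCs against 394 in neurons, a ratio of 0.960 (0.933 to 0.987), the smallest difference of the 9. The 3 genes together summed to 2839 CPM in NPCs and 3419 in neurons. Per kilobase of annotated exon, Nfib was the highest of the 9 genes in both libraries, at 213 CPM per kb in NPCs and 261 in neurons. On that scale it held rank 105 in NPCs and rank 87 in neurons among the 18366 genes with a length. Nfix followed at 68.4 and 90.6 CPM per kb and Nfia at 43.1 and 41.3. Nfib therefore made up 65.6% of the summed level per kb of these 3 genes in NPCs and 66.4% in neurons. With the median transcript length in place of all exons the order was the same, but Nfib exceeded Nfix by 1.44 times in NPCs in place of 3.11 times. The longest identical stretch between annotated transcripts of any pair of the 3 genes was 21 bases. Exons of G430095P16Rik lie over 137 bases of Nfix exons on the other strand, and whether reads were counted by strand is not given in the sources used here. Nfic, the remaining gene of the family, was at 52.2 CPM in NPCs against 33.8 in neurons (ratio 0.647, 0.592 to 0.707). Of the 4 family genes, then, Nfib and Nfix were higher in the neuron library and Nfic and Nfia lower.

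The receptor genes did not move together. Lifr, whose product binds LIF and pairs with gp130, was at 16.9 CPM in NPCs against 25.4 in neurons. It was higher in the neuron library by a ratio of 1.51 (1.33 to 1.71), the largest ratio above 1 of the 9 genes. Il6st, for the shared signalling chain gp130, was at 40.6 CPM in NPCs against 26.8 in neurons, a ratio of 0.660 (0.596 to 0.729). It was higher in the NPC library, and its interval does not meet that of Lifr. Cntfr was at 47.6 CPM in NPCs against 29.1 in neurons, a ratio of 0.612 (0.557 to 0.673), and was also higher in NPCs. Per kb of exon, Il6st exceeded Lifr by 2.28 times in the NPC library, at 3.70 against 1.62 CPM per kb. In the neuron library the same genes stood at 2.44 and 2.45 CPM per kb, a ratio of 0.997, or 1.29 with the median transcript length. Cntfr, with a short transcript, was higher per kb than both, at 23.1 CPM per kb in NPCs and 14.2 in neurons. Per kb of all exons, Lifr and Il6st were the lowest of the 9 genes in both libraries. With the median transcript length Lifr remained the lowest in NPCs, at 4.97, and Stat3 was the lowest in neurons, at 4.40 against 7.49 for Lifr. Which of Lifr, Il6st and Stat3 is lowest in neurons therefore depends on the length used. All 3 receptor genes passed 1 CPM in both libraries. In sorted bulk RNA, fewer cells of a type and less RNA per cell cannot be told apart.

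The kinase genes were close to level. Jak1, a kinase bound to gp130 and other cytokine receptors, was at 75.9 CPM in NPCs against 86.3 in neurons (ratio 1.14, 1.07 to 1.21). Jak2 was at 93.2 CPM in NPCs against 111 in neurons (ratio 1.19, 1.13 to 1.26). Both were slightly higher in the neuron library. Per kb of exon, Jak2 stood at 18.5 CPM per kb in NPCs and 22.1 in neurons, and Jak1 at 15.5 and 17.6. In the NPC library Cntfr was above both kinases on this scale, and in the neuron library it was below both.

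Stat3, the transcription factor at the end of this pathway, was at 39.1 CPM in NPCs (1055 reads) and 16.4 in neurons (373 reads). It was 2.39-fold higher in the NPC library (2.12 to 2.70), and its log2 ratio with 1 CPM added was -1.21. Of the 12693 genes compared, 594 had a lower log2 ratio, which puts Stat3 at percentile 4.68. Il6st and Cntfr were at percentiles 13.1 and 11.0, and the other 6 genes ran from percentile 43.4 for Nfia to 88.8 for Lifr. Per kb of exon, Stat3 was at 6.28 CPM per kb in NPCs and 2.63 in neurons, and Jak1 exceeded it by 2.46 times in NPCs and by 6.69 times in neurons, or by 1.47 and 3.998 times with the median transcript length. In the neuron library the Stat3 level remained 41.9% of that in NPCs. Stat3 and Stat5a exons overlap by 72 bases on opposite strands, and Stat5a, named for this overlap, was at 2.93 CPM in NPCs against 1.10 in neurons.

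**Figure D2:**
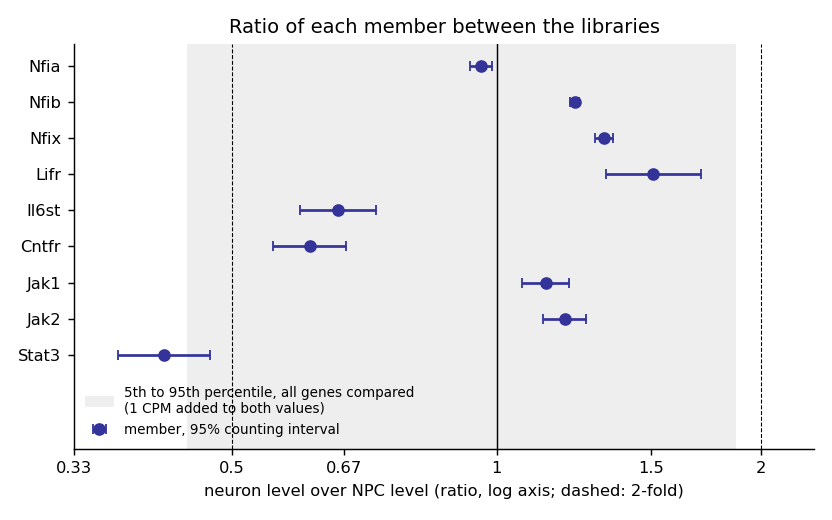
Ratio of neuron to NPC level for each gene on a log axis, with bars for the 95% counting interval, dashed lines at 2-fold and grey shading for the 5th to 95th percentile of all 12693 genes compared (these with 1 CPM added to both values, the members without). Stat3 lies past the left dashed line at 0.419, Lifr reaches 1.51, and Nfia lies at 0.960.

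The populations behind the labels were checked with marker genes. All 10 radial glia markers were at least 2-fold higher in the NPC library, with a summed level of 1833 CPM against 669. Of 9 neuron markers found, 3 passed 2-fold on the neuron side and 8 had a ratio above 1, with sums of 6014 and 9610 CPM. Dcx was at 3294 CPM in neurons, beside its 2522 in NPCs, and was abundant in both libraries. The 6 intermediate progenitor markers summed to 2052 and 836 CPM (5 called higher in NPCs), the 7 interneuron markers to 313 and 224, and the 5 red blood cell markers to 179 and 166 (0 called in both lists). Markers of vessels, meninges and the oligodendrocyte lineage were mostly higher in the NPC library, as Stat3 was. The 9 pericyte markers summed to 196 CPM in NPCs and 11.1 in neurons, and 6 of them passed 2-fold. The 9 endothelial markers summed to 22.5 and 3.38 CPM (7 called), the 5 oligodendrocyte lineage markers to 76.8 and 2.81 (5 called), and the 5 meningeal markers to 23.7 and 1.85 (3 called). Of these lists, Des was the marker at 0 reads, in the neuron library. The 11 microglia markers went the other way, with 32.5 CPM in NPCs and 140.1 in neurons (10 called). Markers of Cajal-Retzius cells, early-born neurons of the cortical surface, summed to 99.2 and 459 CPM, with 5 of 5 called higher in neurons. The part of any of these cells in the ratios of Stat3, Il6st, Cntfr and Lifr was not tested.

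**Figure D3:**
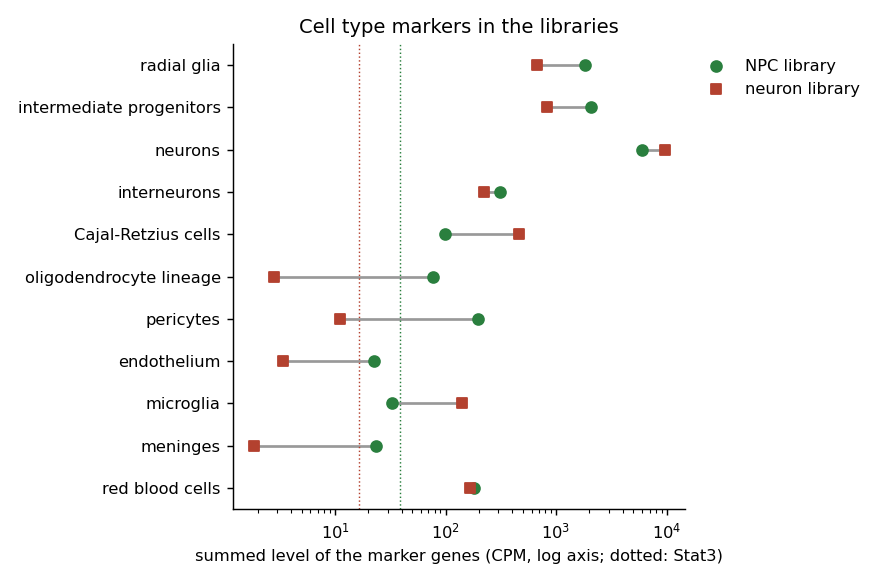
Summed level of the markers of each cell type in the NPC library (circles) and the neuron library (squares), in CPM on a log axis, with dotted lines at the levels of Stat3. Pericyte markers run from 196 to 11.1 CPM and microglia markers from 32.5 to 140.1 CPM between NPCs and neurons.

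The ligands of the pathway were near the limit of detection. Of 10 IL-6 family ligand genes, 3 passed 1 CPM in a library. Lif, Osm and Il27 had 0 reads in both libraries, which allows up to 3 reads, or 0.111 CPM in NPCs and 0.132 in neurons. Cntf had 63 reads in NPCs and 30 in neurons (2.34 and 1.32 CPM, 1.77-fold higher in NPCs, 1.13 to 2.84). Ctf1, for cardiotrophin 1, a ligand known to drive astrocyte formation, had 45 and 38 reads and stood at 1.67 CPM in both libraries (interval of the ratio 0.632 to 1.57). Clcf1, another ligand gene of the family, named after its values were seen, had 6 and 4 reads.

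Of the other receptor genes of this family, 3 of 5 passed 1 CPM in a library and 0 reached 2-fold with 1 CPM added. With 0.5 CPM added, 1 passed on each side, Osmr in NPCs and Il6ra in neurons. Il11ra1, the IL-11 receptor, was at 8.34 CPM in NPCs against 4.17 in neurons (2.00-fold, 1.57 to 2.57). Il6ra, the IL-6 receptor, had 18 reads in NPCs and 53 in neurons, a ratio of 3.49 (2.01 to 6.32). Osmr, the oncostatin M receptor, had 28 reads in NPCs and 1 in neurons, a 23.6-fold higher level in NPCs with a wide counting interval of 3.91 to 967. These receptors are known from immune and stromal cells as well, and the marker levels of such cells in the libraries are given with the cell type check.

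Among 8 other JAK and STAT genes, 1 passed 2-fold on the NPC side and 0 on the neuron side, and the median of the log2 ratios was -0.18. With 0.5 CPM added in place of 1, 3 passed on the NPC side, Stat5b, Stat5a and Stat4, and with a filter at 10 CPM the median was -0.011. Stat4, named after its values were seen, had 37 reads in NPCs and 5 in neurons (6.25-fold, 2.45 to 20.4). The called gene was Stat5b, at 17.0 CPM in NPCs against 5.88 in neurons (2.89-fold, 2.38 to 3.53). Stat5a and Stat5b share an identical stretch of 324 bases in annotated transcripts, so the split of reads between them is uncertain. Stat2, which acts in interferon signalling, was at 30.5 and 39.9 CPM (ratio 1.30, 1.19 to 1.44). Tyk2, another Janus kinase, was at 25.4 and 26.3 CPM (ratio 1.04, 0.928 to 1.16), a difference within counting error. Against the background of 6.73%, 1 of 8 is a single gene.

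The inhibitors of the pathway showed no call. Of 16 genes 15 passed 1 CPM, and 0 reached 2-fold either way with 1 CPM added, against 10.6% of all genes compared. With so few genes, 0 of 15 is not far from that share, and the count is no result about the inhibitors. Ptpn6, named after its values were seen, had 31 reads in NPCs and 61 in neurons. Without the added CPM its ratio was 2.33 (1.49 to 3.71). The median of the list's log2 ratios was 0.10. Ptpn11, for the phosphatase SHP2 that binds gp130, was at 244 CPM in NPCs against 235 in neurons (ratio 0.964, 0.930 to 0.9997). Pias2, of a family named for inhibition of activated STATs, was at 204 and 187 CPM (ratio 0.917). Socs7 was at 136 and 184 CPM (ratio 1.35, 1.29 to 1.41). Socs3, the feedback gene whose promoter is shown above, was at 11.6 CPM in NPCs (314 reads) and 15.5 in neurons (353 reads). Its ratio of 1.33 (1.14 to 1.55) lay above 1, while that of Stat3 lay below 1.

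**Figure D4:**
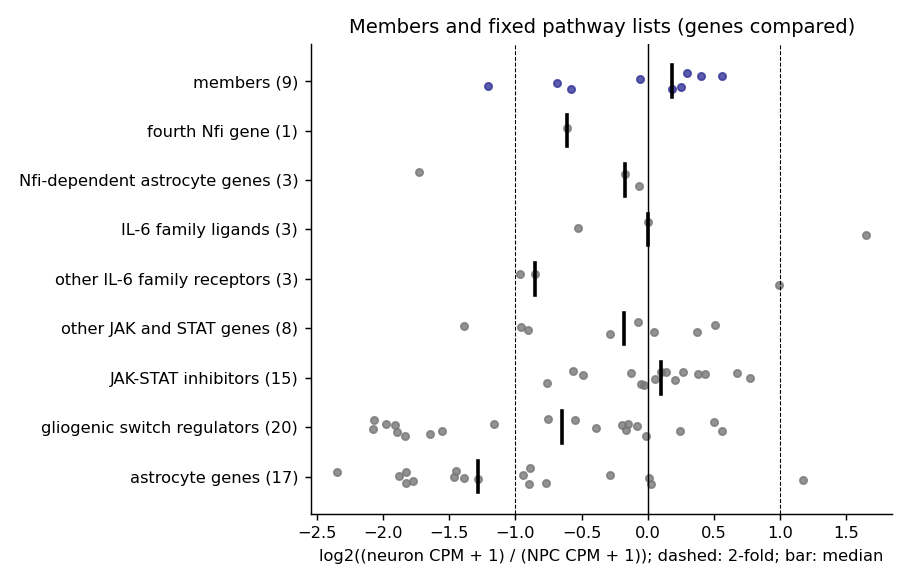
Log2 ratio of neuron to NPC, with 1 CPM added, for the 9 members and the genes of each fixed list that passed 1 CPM, each dot 1 gene, with the median as a bar and dashed lines at 2-fold. The inhibitors lie within 2-fold, while the astrocyte genes have a median of -1.28.

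Regulators of the neuron-to-glia switch outside the JAK-STAT chain were mostly higher in NPCs. Past 2-fold were 9 of the 20 genes on the NPC side and 0 on the neuron side, against 6.73% and 3.85% of all genes compared. The median of the list's log2 ratios was -0.65. Sox9, a transcription factor that works with NFIA in early glia, was at 62.4 CPM in NPCs against 16.8 in neurons (3.72-fold, 3.33 to 4.17). Notch1, whose signalling also promotes astrocyte fate, was at 342 and 86.2 CPM (3.97-fold, 3.78 to 4.17). The neurogenic factor gene Neurog2 had 502 CPM in NPCs against 170 in neurons (2.95-fold, 2.85 to 3.06). The Notch target genes Hes1 and Hes5, the proneural gene Neurog1, the growth factor receptor genes Egfr and Erbb2, and the transcription factor gene Zbtb20 made up the rest, with levels from 2.34-fold to 8.50-fold higher in NPCs. Ncor1, a corepressor known to hold astrocyte genes silent, was at 478 and 426 CPM (ratio 0.892). The coactivators Ep300 and Crebbp, which join STAT3 with SMAD proteins, had ratios of 0.874 and 0.900 and were named after their values were seen. The list pools genes that favour and genes that oppose astrocyte fate, so its median is no measure of either. Hes1, Hes5, Neurog1 and Neurog2 are also on the radial glia or intermediate progenitor marker lists. Their calls therefore repeat the difference in those markers. The list was also chosen with earlier results of these data known.

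Of 20 genes on the astrocyte list 17 passed 1 CPM. Past 2-fold were 9 on the NPC side and 1 on the neuron side, against 6.73% and 3.85% of all genes compared. The median of the list's log2 ratios was -1.28. Fabp7, a fatty acid binding protein of radial glia, was at 256 CPM in NPCs against 92.2 in neurons (2.78-fold, 2.64 to 2.92). Slc1a3, the glutamate transporter GLAST, was at 162 and 58.5 CPM (2.76-fold, 2.60 to 2.94). Aldoc, the aldolase whose promoter is shown above, was at 114 and 31.3 CPM (3.64-fold, 3.35 to 3.95). Gja1, Tnc, Aldh1l1, Ndrg2 and Fgfr3 were also called, from 2.46-fold to 4.25-fold higher in NPCs. Fabp7 and Slc1a3 are also on the radial glia marker list, so their calls repeat the difference in those markers. This list, too, was chosen with earlier results of these data known. Glul, glutamine synthetase, was level at 123 and 125 CPM (ratio 1.02, 0.966 to 1.07). Apoe, which microglia also make, was at 13.5 CPM in NPCs against 31.8 in neurons (ratio 2.35, 2.07 to 2.67). The microglia markers were higher in the same library, and their part in the Apoe ratio was not tested. Gfap, a known STAT3 target and marker of astrocytes, had 13 reads in NPCs and 3 in neurons, and S100b had 7 and 5. Both were named after their values were seen.

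Of 3 genes described as depending on nuclear factor I during gliogenesis, Zcchc24 was at 21.4 CPM in NPCs against 5.75 in neurons (3.73-fold, 3.08 to 4.54). Apcdd1 was at 96.1 and 85.4 CPM (ratio 0.889, 0.838 to 0.943), and Mmd2 at 80.9 and 77.3 (ratio 0.956, 0.897 to 1.02), within counting error. Over all the fixed pathway and astrocyte lists, 70 of 83 genes passed 1 CPM. Past 2-fold were 20 on the NPC side and 2, Apoe among them, on the neuron side. Of all genes compared, 6.73% and 3.85% passed on these sides. A marker list also holds Hes1, Hes5, Neurog1, Neurog2, Slc1a3 and Fabp7, each of which passed 1 CPM and was called higher in NPCs. Leaving these genes out, 14 and 2 were called, out of fewer genes. Markers of radial glia, pericytes and the oligodendrocyte lineage were higher in the same library, and their part was not tested.

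With 2 libraries the pattern of a gene is 1 ratio, so likeness was taken as the smallest difference in log2 ratio among 100 listed genes at 10 CPM or more. The closest gene to Stat3 was Prom1, a radial glia gene, at -1.22. Mmd2 was closest to Nfia at -0.064, Dcx to Nfix at 0.39 and Bmpr1b to Lifr at 0.56. For Nfib, Jak1 and Jak2 the closest genes were Socs5, Ptpn2 and Smad1, and for Il6st and Cntfr they were Dlx1 and Dlx5. Between 127 genes for Stat3 and 1494 for Nfia, of all genes compared, lay within 0.05 of a member's log2 ratio, so such likeness is common.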

How the data were processed

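RNA was sequenced from NPCs and neurons of mouse cortex, with 1 library each, from total RNA made with TRIzol and a TruSeq kit, per the labels' protocols. Build mm9, TopHat 1.2.0, CASAVA 1.9, edgeR and SAMtools 0.1.18 appear in the submitters' processing notes, which give no role or order. Neither annotation nor use of strand is stated (not given in the sources used here). Groups follow the labels. The column headers begin with D.ctx for NPCs and R.ctx for neurons, letters that the sources used here do not explain.

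The deposited values are a signal, read counts that the authors rescaled to a common library size. Each library's values follow 1 step per read, 0.953 in NPCs and 1.13 in neurons, and 100% of values in both came out whole within 0.05 reads. Neuron values under 0.01 were taken as 0. Values were divided by the mean sum of both libraries and multiplied by 1000000 (CPM), which keeps the authors' scaling. On this scale 1 CPM is 27.0 reads in NPCs and 22.8 in neurons. Genes with at least 1 CPM in a library were compared by log2((neuron + 1)/(NPC + 1)), while ratios of single genes carry no added value. With 1 library per group no dispersion can be estimated, so no count test was run and no p-value computed. The labels name no molecular identifiers, so reads can repeat a molecule, and intervals and the floor of 3 reads cover counting error only.

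The members and lists were chosen with earlier results of these data known. The rule for named genes takes all members, the list genes past 2-fold, the 3 highest by CPM of each list and the 1 listed gene closest to each member in log2 ratio. A few genes it would take are not reported here. Map2 and Ndnf, on marker lists, were not found by symbol. Exon lengths are from GENCODE vM21 on GRCm38, not the authors' build, and matched 18366 of 20373 genes (90.1%). Promoter windows are RefSeq's of GRCm38.p6. Of 159 windows of listed genes, 124 had their bases after the start in a GENCODE transcript on the sense strand. The calculation was tested on simulated data of 20373 genes made for neuron against NPC, where 200 genes changed 4-fold and 100% of those were recovered. The changed genes were drawn above a minimum level, and the only noise was counting error. Changes of 4-fold lie well past the 2-fold threshold, so this checks the calculation and not the calls near the threshold or at low levels. Alternatives were scaling by total reads, TMM or upper quartiles (edgeR 4.0.16 in R 4.3.3), other added values, filters and thresholds.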

Additional observations from a re-analysis of the deposited data

How the results depend on the processing

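The direction of all 9 member ratios was the same under scaling by total reads, TMM factors or upper quartiles and with 1 CPM added, the alternatives run for them. Over these, the ratio of neuron to NPC ran from 0.916 to 0.960 for Nfia, from 0.400 to 0.433 for Stat3 and from 1.44 to 1.51 for Lifr. With total reads the ratios of Nfia, Nfib and Nfix were 0.916, 1.17 and 1.26, each outside its counting interval. The choice of scaling thus moved these ratios by more than counting error. With 5 CPM added, 399 genes were higher in NPCs and 238 in neurons by 2-fold, and 0 pathway genes were higher in neurons. With a filter at 10 CPM, 548 genes were higher in NPCs, 1 pathway gene was higher in neurons, and the median log2 ratio of all genes was 0.0035 in place of -0.0049. At 1.5-fold, 1659 and 1346 genes, 2 and 0 members (Stat3 and Cntfr), and 31 and 5 pathway genes were higher in NPCs and in neurons. As a call chosen after seeing the data, a counting interval that does not hold 1 gave 4389 and 4261 genes, 4 and 5 members, and 44 and 15 pathway genes. The median log2 ratio of the 3 ligand genes compared, 9.6e-05, turned to -0.041 with total reads, -0.0023 with TMM and -0.0082 with upper quartiles. That of the astrocyte genes, -1.28, became -0.92 with no filter, -1.13 with 5 CPM added and -1.42 with the filter at 10 CPM. The ratio of Il6st to Lifr per kb in neurons, 0.997, became 1.29 with the median transcript length, also chosen after seeing the data. No ligand and no other family receptor reached 10 CPM, so their medians have no value there. No paired analysis was possible because each group has 1 library. Depth limits the ligand genes, where 3 reads are 0.111 CPM in NPCs and 0.132 in neurons.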

Other observations

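Stat3, Stat5a and Stat5b lie next to each other on mouse chromosome 11 in the RefSeq order of protein-coding genes (GRCm38.p6), and their neighbours were examined after the values were seen. All 3 were lower in the neuron library, with ratios of neuron to NPC of 0.419 for Stat3, 0.375 for Stat5a and 0.346 for Stat5b. The next gene on the Stat3 side, Ptrf (Cavin1), which vascular cells are known to express, had 55 reads in NPCs and 9 in neurons. The next on the Stat5b side, Ghdc, had 81 and 30 reads. One gene farther on that has reads, Atp6v0a1 had a ratio of 1.25 and Kcnh4 one of 1.07. The 5 adjacent genes from Ghdc to Ptrf were thus lower in the neuron library, and Kcnh4 and Atp6v0a1 were not. The ends of this run were set after its values were seen. Of all genes compared, 50.7% had a log2 ratio below 0, so the run is no result about this stretch of the chromosome. Reads of Stat5a and Stat5b can be shared, and Stat3 and Stat5a overlap at their ends.

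The type I receptors for bone morphogenetic proteins, which act with LIF signalling in astrocyte formation, differed in direction. Bmpr1a was at 180 CPM in NPCs against 106 in neurons (ratio 0.591, 0.563 to 0.621), and Bmpr1b at 21.0 and 31.5 CPM (ratio 1.497, 1.34 to 1.67). Smad1, which they activate, was at 58.2 and 69.0 CPM (ratio 1.19). Among the Socs genes, Socs2 had a ratio of 1.61 (1.48 to 1.76), whereas Socs4 and Socs6 had ratios of 0.575 (0.509 to 0.649) and 0.706 (0.646 to 0.772). These genes were named after their values were seen.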
